A study of Ambystoma mexicanum with 60 samples.

Results

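Entry into mitosis is set by the cyclin-dependent kinase CDK1, which is held inactive by phosphates that the WEE kinases add and the CDC25 phosphatases remove. The transcripts described here encode these opposing enzymes together with CDKN1B (p27), a CIP/KIP protein that binds and blocks cyclin-CDK complexes, and CHEK1, the checkpoint kinase that acts on CDC25A and the WEE kinases when DNA replication stalls. Members were taken as all transcripts whose human symbol, in the ortholog table deposited by the authors, was WEE1, WEE2, PKMYT1, CDC25A, CDC25B, CDKN1B or CHEK1. This gave 10 measured transcripts of 28909, under 6 symbols of 9194. No transcript carried the symbol CDC25B, and 1 of the 2 transcripts with the symbol CHEK1 was not in the count table, so neither is analysed here.

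In amphibian eggs these genes are known for running the cleavage divisions. The first divisions of an amphibian embryo alternate rapidly between DNA replication and mitosis on stored maternal RNA and protein, and lengthening of the cycle at the mid-blastula transition is accompanied by inhibitory phosphorylation of CDK1. WEE1 is the kinase of most dividing cells, WEE2 is known in mammals as the kinase of the oocyte and egg, and PKMYT1 is the membrane-bound member of the family. In Xenopus embryos CDC25A protein is degraded around the mid-blastula transition.

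Axolotl (Ambystoma mexicanum) embryos were collected at the 1-cell (fertilized egg), 4-cell, 64-cell and 1K-cell stages, without any treatment, and each was cut into 5 sections along the animal-vegetal axis, from E at the vegetal pole through D, C and B to A at the animal pole. There were 12 embryos, 3 per stage, and 59 libraries were used of 60 labelled samples, because the labels mark the D section of 1-cell replicate 3 as an outlier. The methods describe independent experiments with different females and males, but do not say which embryo came from which. Experiment and parentage therefore cannot be told apart from stage or replicate. Libraries were made from rRNA-depleted total RNA, with an equal mass of RNA per section, so a level is relative to the other RNAs of the same section or embryo and the yield of each section does not enter.

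Levels are normalized counts, that is, estimated counts divided by a median-of-ratios size factor, either per section library or per embryo after summing its sections. They are not corrected for transcript length, so levels are compared within a transcript and not between genes. Section libraries held 1546418 to 6001350 counts (median 3881582), and embryo totals 14842060 to 22190036. Of the egg and oocyte markers, 5 of 6 were measured, with a summed level of 14607.5 to 16599 per 1-cell embryo, 9789.5 to 16269 per 4-cell embryo, 8565 to 9629.9 per 64-cell embryo and 7377.7 to 8225 per 1K-cell embryo, while 0 of 6 ovarian follicle markers and 0 of 5 blood markers had a measured transcript. Among markers of the zygotic mesendoderm, 2 of 7 were measured, TBXT and EOMES. ZP3 and ZP4, proteins of the egg coat, averaged 1898 and 1082 in the 1K-cell embryos, against 6080.3 and 4365 in the 1-cell embryos, whereas the oocyte growth factor BMP15 averaged 3182.5, against 3277. The summed level of 5 germ plasm markers was 24603.6 to 34106 per 1-cell embryo and 8374 to 19110.3 per 4-cell embryo. It was 16474 to 23925 per 64-cell embryo and 14040.5 to 16574 per 1K-cell embryo. TBXT averaged 215 in the 1K-cell embryos, against 71.6 in the 64-cell and 109.6 in the 1-cell embryos. EOMES went the other way, with 2343.7 in the 1K-cell embryos, against 2689.5 in the 64-cell embryos. The part of these shifts in the stage differences below was not tested.

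WEE1, WEE2, PKMYT1 and CDC25A are each represented by a pair of transcripts, named -a for the one with the higher mean count over all embryos and -b for the other. WEE1-a is AMEXTC_0340000043076 and WEE1-b is AMEXTC_0340000248526. WEE2-a is AMEXTC_0340000250486 and WEE2-b is AMEXTC_0340000080610. PKMYT1-a is AMEXTC_0340000236394 and PKMYT1-b is AMEXTC_0340000056219. CDC25A-a is AMEXTC_0340000152278 and CDC25A-b is AMEXTC_0340000065555. CDKN1B is AMEXTC_0340000053551 and CHEK1 is AMEXTC_0340000187590. The ortholog table gives both WEE2 transcripts the same best homolog, and likewise both WEE1 transcripts, while the RefSeq annotation of axolotl (another assembly, UKY_AmexF1_1) lists 1 gene for each of the 7 symbols. How kallisto divided reads between the transcripts of a pair was not tested, so each pair is also given as its sum.

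Between consecutive stages, WEE2-a, WEE2-b and CDC25A-a were called at the 4-cell stage, and WEE1-a and CDKN1B at the 1K-cell stage. These comparisons also held most of the calls over all transcripts. WEE1-b, CDC25A-b, CHEK1 and both PKMYT1 transcripts were not called between consecutive stages. The call of CDC25A-a stood under 11 of 19 alternative fits and that of CDKN1B under 17. A transcript was called when edgeR's quasi-likelihood test gave an adjusted p under 0.01 over all 28909 transcripts and its mean total exceeded 20 in at least 1 stage. At the 4-cell stage relative to the 1-cell stage 3 of 10 were called (1 higher, 2 lower), where 10.9% of all transcripts were called (5.48% higher, 5.47% lower). At the 64-cell stage relative to the 4-cell stage 0 of 10 were called by edgeR and 0 by DESeq2, with 1 of 10 at an unadjusted p under 0.05, and 0.36% of all transcripts were called. At the 1K-cell stage relative to the 64-cell stage 2 of 10 were called, both higher, against 3.18% of all transcripts (3.12% higher, 0.0623% lower). Over the whole interval, 1K-cell relative to 1-cell, 5 of 10 were called (2 higher, 3 lower), against 16.5% (10.2% higher, 6.33% lower). On symbol sums 1, 0, 1 and 1 of 6 were called in these comparisons, where 7%, 0%, 0.163% and 8.21% of all symbols were called, and the 0 came with 1 of 6 at an unadjusted p under 0.05 and 0 called by DESeq2.

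**Figure D1:**
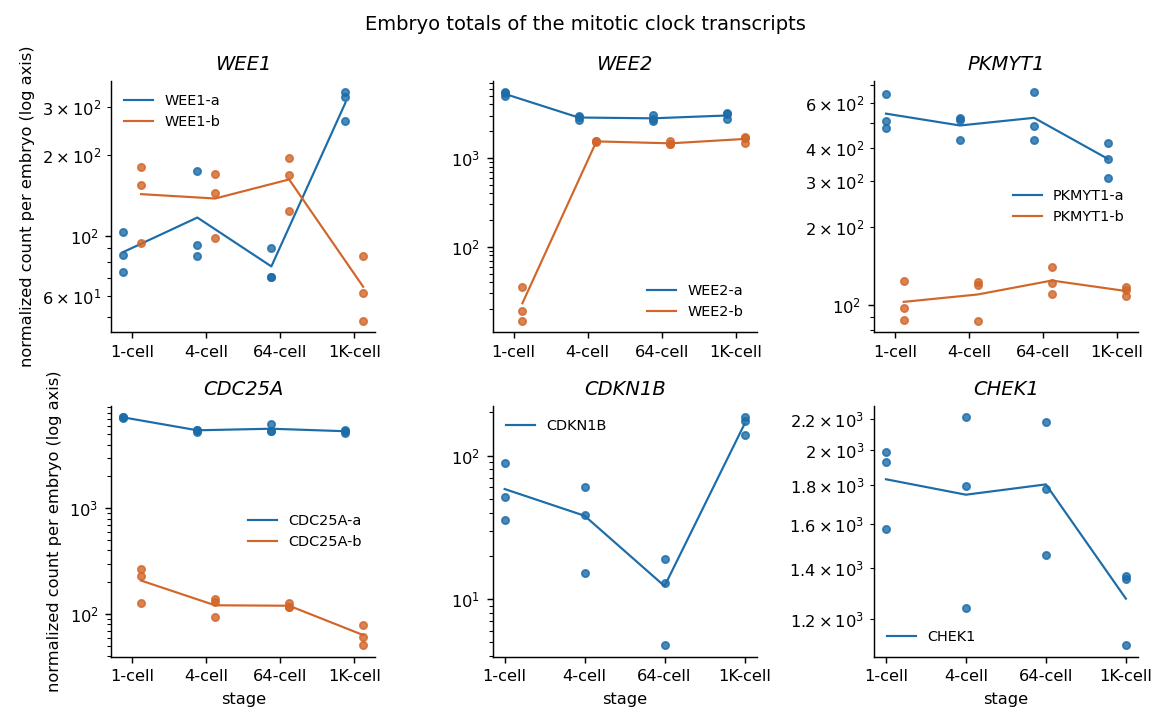
Normalized count per embryo (log axis) of each transcript against stage, with 1 point per embryo, lines joining stage means, blue for the -a or only transcript and orange for the -b transcript. WEE2-b is the transcript with the widest step, with a mean of 1537.6 in the 4-cell embryos, against 23.2 in the 1-cell embryos, and WEE1-a and CDKN1B stand highest at the 1K-cell stage.

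The largest change belonged to WEE2. WEE2-b had 1572, 1496 and 1544 normalized counts in the 4-cell embryos, against 19.1, 35.8 and 14.7 in the 1-cell embryos. The groups were far apart, with means of 1537.6 and 23.2, a 66.2-fold difference that the model put at 6.03 on the log2 scale (SE 0.219, adjusted p = 1.18e-08). No later change was called, with 1424, 1539.7 and 1423 in the 64-cell embryos and 1478, 1694 and 1742 in the 1K-cell embryos, and the log2 differences of -0.07 (SE 0.158) at 64-cell relative to 4-cell and 0.16 (SE 0.158) at 1K-cell relative to 64-cell did not pass the test.

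WEE2-a moved the other way in the same step. It had 2856, 3005 and 2704 normalized counts in the 4-cell embryos, against 5021, 5466 and 5331 in the 1-cell embryos, and no 4-cell embryo reached the lowest 1-cell embryo. The log2 difference was -0.88 (SE 0.094, adjusted p = 3.97e-05). The 64-cell embryos had 2718.5, 3047 and 2622 and the 1K-cell embryos 2751, 3100.0 and 3172, so the 3 later stages overlapped.

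Together these changes altered which transcript carried the WEE2 counts far more than how many there were. WEE2-b made up 0.435% ± 0.193 of WEE2 counts at the 1-cell stage, 35.0% ± 1.61 at the 4-cell stage, 34.4% ± 0.806 at the 64-cell stage and 35.2% ± 0.266 at the 1K-cell stage (SD, n = 3 embryos each). These are shares of counts, not corrected for length. The later stages did not differ from each other beyond that spread, and in single section libraries the share lay between 28.2% and 46.4% in all 45 libraries after the 1-cell stage and at or below 1.44% in the 14 libraries of the 1-cell stage. The WEE2 sum was 4429, 4501 and 4248 in the 4-cell embryos, against 5040.2, 5501 and 5346 in the 1-cell embryos, which did not overlap but missed the threshold (log2 difference -0.27, SE 0.0906, adjusted p = 0.0679). At 1K-cell relative to 1-cell the sum differed by -0.19 on the log2 scale (SE 0.0904, adjusted p = 0.179).

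**Figure D2:**
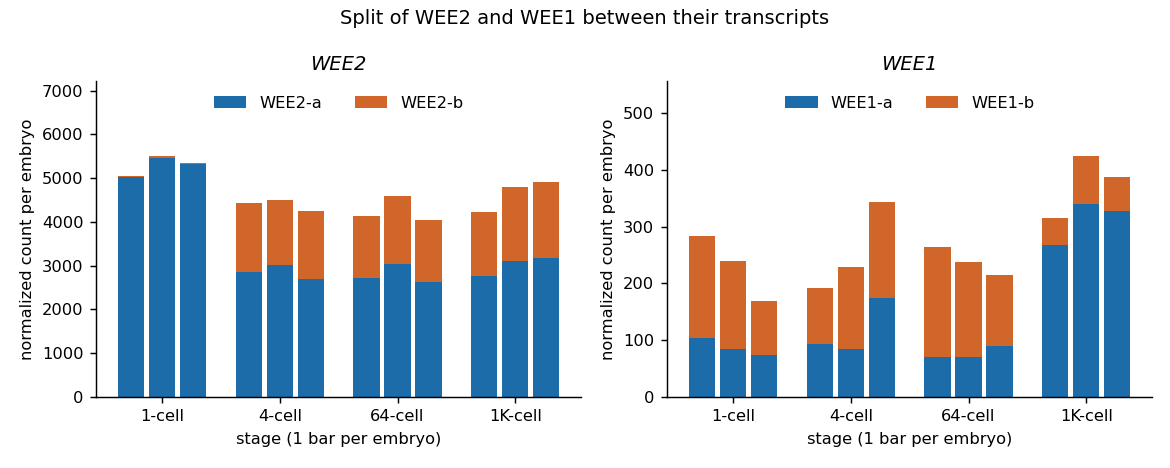
Stacked normalized counts per embryo of the -a (blue) and -b (orange) transcripts of WEE2 (left) and WEE1 (right), 1 bar per embryo, grouped by stage, with both axes starting at 0. The orange part of WEE2 is 35.0% of counts at the 4-cell stage, against 0.435% at the 1-cell stage, and the blue part of WEE1 is 82.9% at the 1K-cell stage.

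In WEE1 the balance between transcripts changed later. WEE1-a had 103, 84.9 and 73.7 normalized counts in the 1-cell embryos, 92.7, 84.1 and 174 in the 4-cell embryos, 70.6, 70.7 and 90.2 in the 64-cell embryos, and 267, 339.6 and 327 in the 1K-cell embryos. All 1K-cell embryos lay above all earlier ones, while the first 3 stages overlapped. The rise at 1K-cell relative to 64-cell was 2.01 on the log2 scale (SE 0.276, adjusted p = 8.49e-04), and relative to 1-cell it was 1.83 (SE 0.276, adjusted p = 4.12e-04). In order of level the stages ran 64-cell (77.2 ± 11.3), 1-cell (87.2 ± 14.9), 4-cell (117 ± 49.8) and 1K-cell (311 ± 38.8; SD, n = 3 each), and only the last step exceeded the spread.

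WEE1-b had 48.6, 84.5 and 61.7 normalized counts in the 1K-cell embryos, against 194, 168 and 124 in the 64-cell embryos. The groups did not overlap, and the log2 difference of -1.32 (SE 0.312) had an adjusted p of 0.0302 by edgeR, above the threshold, and of 0.00375 by DESeq2, below it. The 4-cell embryos had 98.3, 145 and 169.7 and the 1-cell embryos 179.7, 154 and 94.6, both overlapping the 64-cell range. WEE1-a made up 38.6% ± 4.53 of WEE1 counts at the 1-cell stage, 45.3% ± 7.50 at the 4-cell stage, 32.8% ± 8.22 at the 64-cell stage and 82.9% ± 2.47 at the 1K-cell stage (SD, n = 3 embryos each). The WEE1 sum was 315, 424 and 388 in the 1K-cell embryos, against 265, 238 and 214 in the 64-cell embryos, and its log2 difference of 0.65 (SE 0.229, adjusted p = 0.32) did not pass the test.

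PKMYT1, the membrane-bound kinase of the family, was not called in any stage comparison. PKMYT1-a had 645, 508.5 and 479 normalized counts in the 1-cell embryos, 431, 514 and 525 in the 4-cell embryos, 657, 429.8 and 487 in the 64-cell embryos and 420.1, 365 and 307.5 in the 1K-cell embryos. The 1K-cell embryos lay below all others, and the log2 difference to the 1-cell stage was -0.58 (SE 0.189, adjusted p = 0.0411). PKMYT1-b stayed between 87.0 and 140.4 in all 12 embryos, with stage means of 103, 109.8, 124 and 113 in order of stage. None of its stage means differed beyond the spread between embryos.

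CDC25A is the only phosphatase among the members. CDC25A-a had 5519, 5519.9 and 5306 normalized counts in the 4-cell embryos, against 7166, 7259 and 7216 in the 1-cell embryos. The 1-cell embryos stood apart and close together, and the log2 difference was -0.40 (SE 0.0836, adjusted p = 0.00492). The 64-cell embryos had 6218, 5358 and 5332.5 and the 1K-cell embryos 5402, 5453 and 5159, overlapping the 4-cell stage. At 1K-cell relative to 1-cell it was lower by a log2 difference of -0.43 (SE 0.0836, adjusted p = 0.00217). The call at the 4-cell stage did not stand without any single embryo of the 2 stages compared (adjusted p 0.0152 to 0.0224, log2 differences of -0.41 to -0.39), nor without 1K-cell replicate 2 (adjusted p = 0.011). That call was also lost with total counts as the scaling (adjusted p = 0.0127). The one over the whole interval did not stand without 1-cell replicate 2 (0.0108) or 1K-cell replicate 2 (0.0103) or 3 (0.0122).

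CDC25A-b carried 1.17% ± 0.242 of the CDC25A counts at the 1K-cell stage, against 2.79% ± 0.960 at the 1-cell stage (SD, n = 3 each). It had 79.1, 60.8 and 50.8 normalized counts in the 1K-cell embryos, against 228, 269 and 127 in the 1-cell embryos. These ranges were separate, and the log2 difference was -1.71 (SE 0.287, adjusted p = 8.71e-04). The 4-cell embryos had 131, 94.6 and 138 and the 64-cell embryos 128, 117 and 116, all above the 1K-cell range. Both stages overlapped the 1-cell range only through 1-cell replicate 3 (127), whose total lacks section D. With section D left out of every embryo, the difference between 1K-cell and 1-cell was -0.92 with an adjusted p of 0.0312, and section D was the one with the highest 1-cell level. The CDC25A sum behaved as its -a transcript, with log2 differences of -0.41 (adjusted p = 0.00488) at 4-cell relative to 1-cell and -0.46 (adjusted p = 0.00214) at 1K-cell relative to 1-cell, and its calls were lost without the same embryos.

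CDKN1B was the member with the highest rise at the 1K-cell stage. Its levels were 88.3, 51.4 and 35.6 normalized counts in the 1-cell embryos, 15.1, 38.5 and 60.4 in the 4-cell embryos, 4.76, 13.0 and 19.2 in the 64-cell embryos, and 139, 185 and 173 in the 1K-cell embryos. The 64-cell values rest on 6, 14 and 24 counts, and the 1K-cell values on 146, 204 and 191. Relative to 64-cell the 1K-cell level was higher by 3.74 on the log2 scale (SE 0.581, adjusted p = 0.00196), a 13.5-fold difference of means. The adjusted p was 0.0125 without 64-cell replicate 2 and 0.0101 without 1K-cell replicate 2, with log2 differences of 3.78 and 3.65. The 64-cell level did not pass the test relative to the 4-cell level (log2 difference -1.61, SE 0.567, adjusted p = 0.625), and 1K-cell relative to 1-cell, whose embryos did not overlap, gave 1.5 (SE 0.52, adjusted p = 0.053). Tested among symbols, the same transcript had an adjusted p of 0.00622 at 1K-cell relative to 64-cell, and it was not called without any single 64-cell or 1K-cell embryo, nor without replicate 2 of the 1-cell or 4-cell stage.

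CHEK1 had 1986, 1931 and 1577 normalized counts in the 1-cell embryos, 1239, 1793 and 2211 in the 4-cell embryos, 2178.5, 1777 and 1454 in the 64-cell embryos, and 1364, 1355 and 1107 in the 1K-cell embryos. The 1K-cell embryos lay below all 1-cell and 64-cell embryos but overlapped the 4-cell range. The log2 difference to the 64-cell stage was -0.50 (SE 0.204, adjusted p = 0.291), and the one to the 1-cell stage was -0.52 (SE 0.204, adjusted p = 0.084), so CHEK1 was not called.

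**Figure D3:**
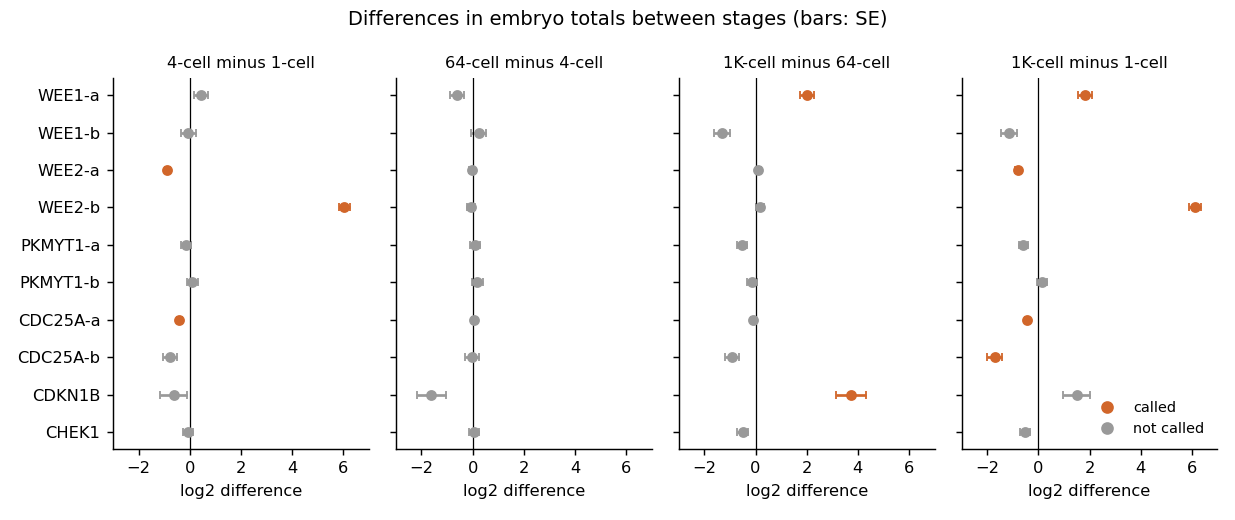
Log2 difference of embryo totals (horizontal axis, later minus earlier stage) for the 10 transcripts in 4 stage comparisons, with bars for the SE and orange for transcripts called at an adjusted p under 0.01. WEE2-b stands alone at 6.03 in 4-cell minus 1-cell, and WEE1-a (2.01) and CDKN1B (3.74) are the 2 called in 1K-cell minus 64-cell.

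Position along the axis was then examined within each stage, testing the 5 section levels of a transcript against each other in a model that also held a term for embryo. The vegetal minus animal difference given below averages the log2 levels of D and E and subtracts the average for A and B. The lean of single embryos is instead the log2 difference of the mean level of D and E from that of A and B. Before taking logs 1 was added to each mean. In 1-cell replicate 3, which has no library of D, section E stood alone for the vegetal side. Each adjusted p given beside a difference is that of the test over the 5 sections, not of the difference itself. None of the 10 transcripts was called by edgeR at any stage (0 of 10 at each), where 6.93%, 2.25%, 3.7% and 3.55% of all transcripts were called in stage order. At an unadjusted p under 0.05 there were 2, 0, 1 and 2 of 10, and DESeq2 called 2, 0, 1 and 1. On symbol sums 1 of 6 was called at the 1-cell stage, CHEK1 (vegetal, as were 11.6% of all symbols), and 0 of 6 at the other stages (1, 1 and 2 of 6 at an unadjusted p under 0.05, 0 called by DESeq2), where 18.9%, 6.35%, 12.7% and 10.4% of symbols were called.

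The CHEK1 sum was called along the axis in the fertilized egg, 1 of 6 where 18.9% of all symbols were called. CHEK1 leaned vegetally there, but its call stood under only 2 of 8 alternative fits. Its levels at the 1-cell stage were 462 ± 41.5 in section E, 404 ± 8.02 in D (n = 2), 331 ± 55.8 in C, 336 ± 59.0 in B and 339 ± 25.6 in A (SD, n = 3 otherwise). Each of the 3 embryos leaned vegetally, and the vegetal minus animal difference of the sum was 0.31 (SE 0.0737, adjusted p = 0.0077 over 9194 symbols). The same single transcript had an adjusted p of 0.0226 over all 28909 transcripts. The call was absent without any 1 of the 3 embryos (adjusted p 0.0482 to 0.114), without the embryo term (0.0892), and with TMM factors (0.017). With total counts as the scaling the difference was 4.00e-04 (adjusted p = 0.906), but that scaling also put the median of all symbols at -0.34 where the median-of-ratios scaling put it at -0.03. Later differences of the CHEK1 sum were 0.37, 0.19 and 0.06 in stage order, none called.

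WEE1 leaned vegetally at every stage without passing the test. The sum of its transcripts averaged 68.2 ± 14.2 in section E, against 35.1 ± 11.1 in section A, in the fertilized egg (SD, n = 3 embryos). At the 4-cell stage it averaged 77.1 ± 13.1 in E, against 34.7 ± 15.9 in A, and at the 64-cell stage 65.7 ± 8.59 in E, against 40.6 ± 10.0 in A. At the 1K-cell stage the means were 103 ± 33.1 in E and 69.4 ± 9.99 in A, and these ranges came closest. In 12 of 12 embryos the vegetal side lay above the animal one, but the share of all symbols with such a lean was not counted. The vegetal minus animal differences were 0.60 (SE 0.185), 0.87 (SE 0.182), 0.63 (SE 0.148) and 0.39 (SE 0.141) in stage order, with adjusted p of 0.0589, 0.0316, 0.0234 and 0.0323 by edgeR. With total counts as the scaling these differences were 0.29 (adjusted p = 0.366), 0.74, 0.56 and 0.33, and none was called. Section E alone held 27.2% ± 1.91 (n = 2 embryos with all sections), 30.6% ± 3.44, 27.8% ± 4.30 and 28.1% ± 6.91 of the summed section levels of an embryo.

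Within the WEE1 pair, WEE1-a had the wider lean at the 4-cell stage and WEE1-b at the other stages. The interaction of section with stage, described below, gave WEE1-a an unadjusted p of 0.765 by edgeR. It gave WEE1-b an adjusted p of 0.339 by edgeR and 0.00179 by DESeq2. The transcripts of the pair were not tested against each other. At the 4-cell stage WEE1-a averaged 51.9 ± 22.8 in section E, against 12.3 ± 11.5 in section A, with a vegetal minus animal difference of 1.44 (SE 0.501, adjusted p = 0.404). At the 1K-cell stage its profile was flat by this measure (0.08, SE 0.261), while WEE1-b had 30.9 ± 9.42 in E, 18.0 ± 10.5 in D, 7.00 ± 6.13 in C, 0.857 ± 1.49 in B and 14.4 ± 5.61 in A. That vegetal minus animal difference was 3.01 (SE 0.789), with an adjusted p of 0.122 by edgeR and 9.86e-05 by DESeq2, and it rested on counts of at most 29 per library, with 3 of 15 libraries at 0. At the 64-cell stage WEE1-b gave 0.84 (SE 0.159, adjusted p = 0.0442 by edgeR and 0.00123 by DESeq2), and all 3 embryos leaned vegetally at both of these stages.

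CDC25A-b had the widest range of vegetal minus animal differences over the stages, on low counts and without a call by edgeR. In the fertilized egg section E held 26.4, 91.4 and 50.6 normalized counts, section D 124 and 114, section C 58.2, 55.1 and 50.0, section B 7.43, 26.5 and 25.9, and section A 11.1, 0 and 0. At the 1K-cell stage section D held 0 counts in all 3 embryos, which allows up to 3 counts per library, while section A held 29.7, 16.6 and 26.2 normalized counts and section E 2.7, 21.4 and 24.3. The vegetal minus animal difference was 3.24 (SE 0.797), 0.72 (SE 0.332), -1.58 (SE 0.81) and -3.61 (SE 1.3) in stage order. With adjusted p of 0.132, 0.799, 0.642 and 0.364 none was called by edgeR, and DESeq2 called the 1-cell stage (adjusted p = 0.00473). The 1-cell difference was 5.49 without 1-cell replicate 1, and the 64-cell difference was -4.29 without 64-cell replicate 2 and -0.87 without 64-cell replicate 1. The 4-cell difference was 0.47 without 4-cell replicate 2. The lean was vegetal in 3 of 3 embryos at the 1-cell and 4-cell stages and animal in 3 of 3 at the 64-cell and 1K-cell stages. At the 1K-cell stage sections E and A both held it, with 26.9% and 35.8% of the summed section levels. The difference there includes the 0 counts of section D, and the leans of its embryos were -3.18, -0.70 and -0.39.

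CDC25A-a, with far more counts per library, was level along the axis. Its vegetal minus animal differences were 0.01 (SE 0.0442), 0.05 (SE 0.0626), -0.01 (SE 0.0512) and -0.09 (SE 0.0444) in stage order with the median-of-ratios scaling. With total counts as the scaling the 1-cell difference was -0.30 and was called (adjusted p = 0.00422), again beside a median of all transcripts of -0.34. Both WEE2 transcripts were similarly level once present, WEE2-a at 0.06 (SE 0.0925), -0.16 (SE 0.0941), 4.10e-03 (SE 0.0666) and -0.10 (SE 0.0598), and WEE2-b at 0.01 (SE 0.0809), -0.14 (SE 0.102) and -0.01 (SE 0.128) from the 4-cell stage on, some of which change sign with another scaling. At the 1-cell stage WEE2-b had 0 counts in 8 of 14 libraries, among them all of sections E and B, and at most 15 counts in the others, whereas at the 4-cell stage section means lay between 278.7 in D and 314.7 in E.

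CDKN1B and PKMYT1 were not called along the axis at any stage. At the 1K-cell stage CDKN1B averaged 20.8 ± 11.8 in E, 28.6 ± 7.41 in D, 36.2 ± 3.58 in C, 35.4 ± 5.69 in B and 33.2 ± 18.2 in A, a vegetal minus animal difference of -0.54 (SE 0.306, adjusted p = 0.699). At the 64-cell stage 5 of 15 libraries held 0 counts of CDKN1B and none more than 8, and the difference was -2.12 (SE 1.1, adjusted p = 0.829), with -1.34 without 64-cell replicate 1 and -3.29 without 64-cell replicate 2. In 3 of 3 embryos CDKN1B leaned animally at both the 64-cell and the 1K-cell stage. PKMYT1-a gave differences of 0.34 (SE 0.17), 0.55 (SE 0.209), 0.02 (SE 0.134) and 0.06 (SE 0.135), and PKMYT1-b of -0.80 (SE 0.39), -0.23 (SE 0.554), -0.13 (SE 0.287) and 0.24 (SE 0.204), with no adjusted p under 0.429.

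**Figure D4:**
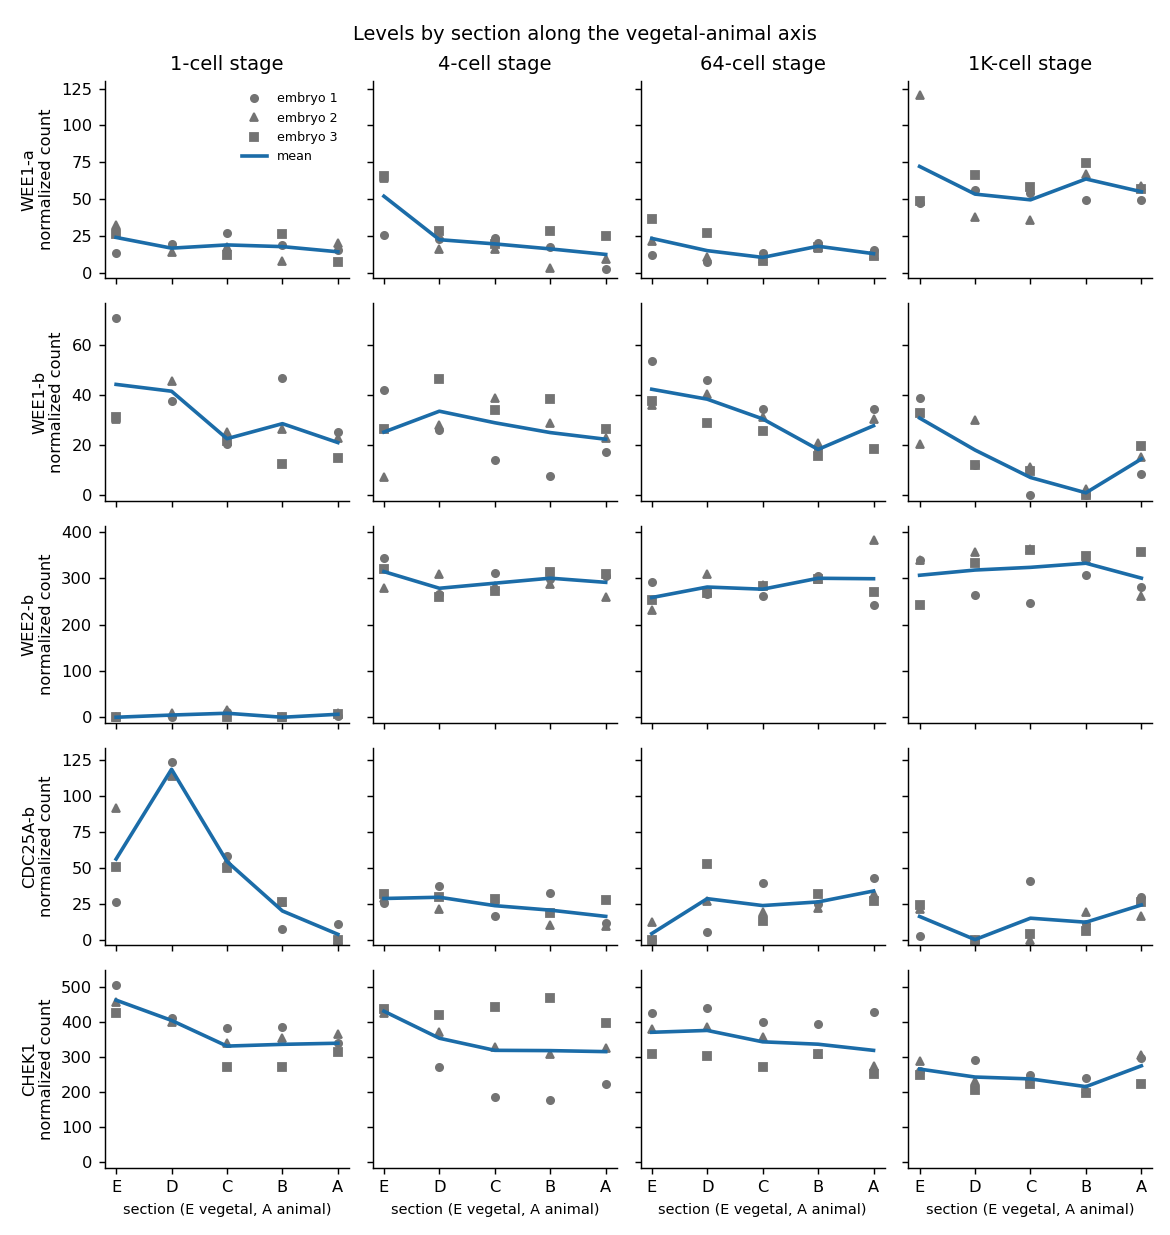
Normalized count per section library (vertical axis, same scale along each row) by section from E (vegetal) to A (animal), for 5 transcripts in rows and the 4 stages in columns, with 1 symbol per embryo and a line for the mean. At the 1-cell stage CDC25A-b stands at 124 and 114 in section D, against 0 to 11.1 in section A, and WEE2-b is near 0 at the 1-cell stage and level across sections later.

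Whether the sectional profile changed with stage was tested by the interaction of section with stage over all 59 libraries, in a model without a term for embryo, although sections of 1 embryo are paired. EdgeR called 0 of 10 transcripts, where 0.837% of all transcripts were called, with 3 of 10 at an unadjusted p under 0.05, and DESeq2 called those 3. They were CDC25A-b (adjusted p = 0.0362 by edgeR, 3.38e-06 by DESeq2), WEE2-b (0.0718 and 2.98e-05) and WEE1-b (0.339 and 0.00179). With a term for each embryo (the replicate block) edgeR called 383 of 28909 transcripts in place of 242 and again 0 of 10 members, with adjusted p of 0.103 for CDC25A-b, 0.0449 for WEE2-b and 0.191 for WEE1-b. Without 1-cell replicate 3, edgeR called WEE2-b (adjusted p = 0.00607). At the 1-cell stage WEE2-b had 0 counts in 8 of 14 libraries and at most 15 in any, so its 1-cell profile rests on few counts.

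The relation of the inhibitory kinases to the phosphatase was followed as the log2 ratio of the summed WEE1, WEE2 and PKMYT1 levels to the CDC25A level in each embryo. It was -0.27 ± 0.0209 at the 1-cell stage, -0.09 ± 0.0445 at the 4-cell stage, -0.16 ± 0.128 at the 64-cell stage and 0.02 ± 0.123 at the 1K-cell stage (SD, n = 3 each). The counts are not per length and the shares of the WEE1 and WEE2 transcripts differed between stages, so transcript lengths enter the ratio and also its differences between stages, and no test was run on it. Relative to the 1-cell stage the means differed by 0.18, 0.11 and 0.29 at the later stages, and the 64-cell range overlapped those of the 1-cell, 4-cell and 1K-cell stages. With CDC25C added to the phosphatases the same differences were 0.13, 0.06 and 0.29. The CDC25A sum averaged 5401 in the 1K-cell embryos, against 7421 in the 1-cell embryos. Of the kinase sums, WEE2 (4646 against 5296) and PKMYT1 (477 against 647) were also lower there, and WEE1 (376 against 230) was higher. A higher ratio is therefore not a higher level of each kinase.

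A wider list of 55 genes around this switch, in 8 roles, was measured for 53 symbols. At the 4-cell relative to the 1-cell stage 1 of 53 was called, at 64-cell relative to 4-cell and 1K-cell relative to 64-cell 0 of 53, and at 1K-cell relative to 1-cell 2 of 53, shares of 1.89%, 0%, 0% and 3.77%, where 7%, 0%, 0.163% and 8.21% of all symbols were called. HUS1, a subunit of the 9-1-1 clamp that signals to ATR and CHEK1, fell to 488, 482 and 543 normalized counts in the 4-cell embryos, against 790.1, 831 and 862 in the 1-cell embryos (log2 difference -0.72, SE 0.156, adjusted p = 0.00767). It was also lower at 1K-cell relative to 1-cell (-1.005, SE 0.157, adjusted p = 6.96e-04). CCNE2, a cyclin E that activates CDK2 and is a target of CDKN1B, had 283, 402 and 505 normalized counts in the 1K-cell embryos, against 155, 156 and 145 in the 1-cell embryos (1.38, SE 0.198, adjusted p = 3.73e-04). The median log2 differences of the list were -0.02, -0.07, 0.05 and -0.03 in these comparisons, and those of all symbols -0.03, -0.01, -3.69e-03 and -0.06.

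Along the axis 14 of 53 genes of the wider list (5 vegetal, 9 animal) were called at the 1-cell stage. The calls were 3 (2 vegetal, 1 animal) at 4 cells, 7 (2 vegetal, 5 animal) at 64 cells and 4 (1 vegetal, 3 animal) at 1K cells. These are 26.4%, 5.66%, 13.2% and 7.55% of the list, against the 18.9%, 6.35%, 12.7% and 10.4% of all symbols given above. The vegetal share of all symbols was 11.6%, 5.22%, 7.55% and 7.66% in stage order, and the animal share 7.33%, 1.13%, 5.12% and 2.72%. For a called gene the side is the sign of its vegetal minus animal difference with the median-of-ratios scaling, and no other scaling was tried on this list. YWHAB, a 14-3-3 protein of the family that binds phosphorylated CDC25, was vegetal at every stage, with differences of 1.42, 0.73, 0.80 and 0.61 (adjusted p from 1.1e-09 to 2.5e-05), and it was the only gene of the list called for the interaction of section with stage (adjusted p = 1.46e-04), where 1.97% of all symbols were called. FBXW11, an F-box protein of the ligase that marks WEE1 and CDC25A for degradation, was vegetal at the 1-cell (1.18, adjusted p = 1.06e-10), 4-cell (0.60, adjusted p = 0.00148) and 64-cell stages (0.66, adjusted p = 1.05e-06).

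Of 13 measured genes of the replication checkpoint above CHEK1, 4 were called at the 1-cell stage, all animal, where 18.9% of all symbols were called and 7.33% were called and animal. At the 4-cell, 64-cell and 1K-cell stages 1, 0 and 1 of the 13 were called. Among them were the kinases ATR (-0.67, SE 0.086) and ATM (-0.68, SE 0.105) and ATRIP, the partner of ATR (-0.44, SE 0.0862). ATM was called again at the 4-cell stage (-0.73) and ATR at the 1K-cell stage (-0.55). CDK2, the partner of cyclins E and A in S phase, was animal at the 1-cell (-0.39) and 1K-cell (-0.44) stages, and PPP2CA, the catalytic subunit of the phosphatase that reverses phosphorylation by CDK1, at the 1-cell (-0.44), 64-cell (-0.46) and 1K-cell (-0.43) stages. AURKA, a kinase of mitotic entry, was animal at the 1-cell stage (-0.31), as were the 14-3-3 genes YWHAE (-0.43) and YWHAG (-0.24). The cyclin CCNA2 (0.12) and the CDK inhibitor CDKN1C (0.49) were vegetal there. Total counts as the scaling moved the median of all symbols toward the animal side at the 1-cell stage, as given above for CHEK1. The difference of CCNA2 is small beside that shift. At the 64-cell stage the cyclin CCNB2 (-0.39), BORA (-0.34), which activates Aurora A, SKP1 (-0.49), a subunit of the ligase named above, and YWHAG (-0.29) were animal.

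**Figure D5:**
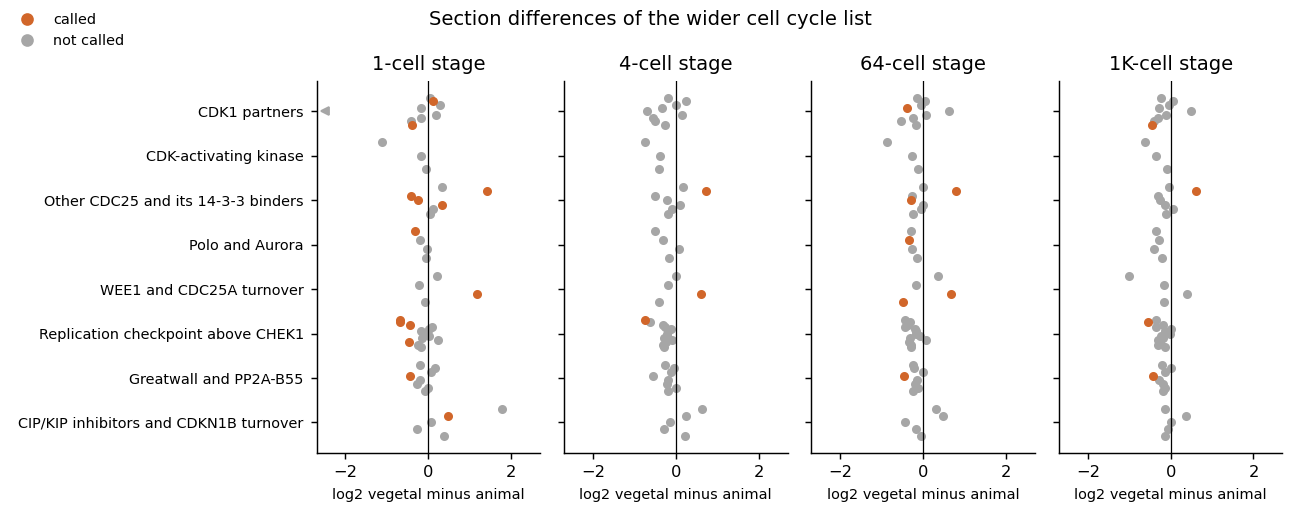
Log2 vegetal minus animal difference (horizontal axis, vegetal to the right) of each gene of the wider list by role, with the 4 stages in columns, orange for called genes, and arrowheads for values beyond the axis limits. YWHAB stays to the right in every column (1.42, 0.73, 0.80 and 0.61), and the called checkpoint genes lie to the left.

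Transcripts with the most similar pattern over the 59 libraries were sought for the -a or only transcript of each symbol, among 12782 transcripts with a human symbol and a mean normalized count of at least 20. The measure was Pearson's r of log2(normalized count + 1), which also carries whatever libraries share, such as depth and stage. WEE1-a was closest to ALYREF (0.75), SIRT4 (0.70) and HIST2H3PS2 (0.69), and CDKN1B to GPX1 (0.69), SIRT4 (0.69) and ETV2 (0.67). WEE2-a was closest to AP2B1 (0.94), SFXN1 (0.94) and PELO (0.94), CDC25A-a to CREM (0.91), ZBED6 (0.91) and NUDT22 (0.90), CHEK1 to UTP18 (0.92), RBBP4 (0.92) and FRAT1 (0.91), and PKMYT1-a to TNK1 (0.86), N4BP3 (0.85) and CLPP (0.85). SIRT4 stood among the 3 closest of both WEE1-a and CDKN1B.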

How the data were processed

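RNA was sequenced from 5 sections of each of 12 embryos. Per the methods, the authors trimmed reads with Trimmomatic, removed remaining ribosomal reads with SortMeRNA, and pseudo-aligned the rest to the axolotl transcriptome with kallisto (0.43.1), and transcripts with over 30 counts in some library were kept. The deposited values are estimated counts given as whole numbers (0 fractional). A further deposited table holds the signal that the authors made from them by DESeq2 normalization, and it matched counts divided by size factors to within 2.11e-13%. Totals per embryo were summed here from section counts, and those of 1-cell replicate 3 lack section D. The counts were summed before scaling, so a section with a deeper library weighs more in its total. Sums of normalized section counts were among the alternatives. The plan named the deposited totals, but their 24 columns name an embryo and no section, so these were not used.

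Sections within a stage were tested with edgeR 4.0.16 (limma 3.58.1, R 4.3.3) by the quasi-likelihood F-test over the 5 sections, with a term for embryo, embryo totals with a term for stage, and the interaction with section, stage and their product, all with median-of-ratios size factors and Benjamini-Hochberg adjustment over the whole table. Standard errors are the log2 difference divided by the square root of its F. Every adjusted p comes from edgeR unless DESeq2 1.42.0 is named. Symbol sums add the counts of all transcripts with 1 human symbol. Each embryo is a separate animal, so sections of 1 embryo are paired. Deviations from section means correlated above 0.1 in 50 of 116 such pairs, against 1 of 232 pairs from different embryos. They were taken from the mean over the embryos of a stage and section, which by itself lowers correlations between different embryos. Replicate libraries of a section differed by 5.7 to 21.1 chi-square units per transcript, so none was taken for a duplicate. Alternatives were TMM factors, filterByExpr, DESeq2, an adjusted p under 0.05, other totals, replicate terms and leaving out each embryo. Total counts as the scaling was added after the data were seen. Named genes are all members; the called genes of the wider list with the smallest adjusted p, at most 3 per role and comparison; and the 3 closest transcripts per symbol. Members and lists were chosen with earlier results of these data known. The models were also run on simulated counts, drawn independently for each library without an embryo effect. Those runs therefore do not cover the pairing of sections within an embryo.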

Additional observations from a re-analysis of the deposited data

Results flagged for a closer look

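With 3 embryos per stage no test for an outlying sample was run. The results below are those in which every embryo of 1 stage leaned to the opposite pole from every embryo of another stage. The lean per embryo was the log2 difference between the mean levels of the vegetal sections (D, E) and the animal ones (A, B). To each mean 1 was added before taking logs. The share of all transcripts that meet this rule was not counted, so the rule gives no measure of how unusual these results are. In 1-cell replicate 3 section E stood alone for the vegetal side.

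CDC25A-b leaned vegetally in all embryos of the 1-cell and 4-cell stages and animally in all embryos of the 64-cell and 1K-cell stages. Per embryo, the 1-cell values were 2.89, 2.86 and 1.89, the 4-cell values 0.48, 1.28 and 0.40, the 64-cell values -3.21, -0.40 and -0.16, and the 1K-cell values -3.18, -0.70 and -0.39. The mean difference was -3.80 between 64-cell and 1-cell, -3.97 between 1K-cell and 1-cell, -1.98 between 64-cell and 4-cell, and -2.14 between 1K-cell and 4-cell. The interaction of section with stage gave CDC25A-b an adjusted p of 0.0362 by edgeR, which misses the threshold, and 3.38e-06 by DESeq2. Its counts were at most 107 per library, and 2, 0, 2 and 4 libraries held 0 counts in stage order.

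PKMYT1-b leaned vegetally in the 1K-cell embryos (0.15, 0.23 and 0.30) and animally in the 1-cell embryos (-0.27, -1.55 and -0.04), a mean difference of 0.85. Its interaction had an unadjusted p of 0.769 and an adjusted p of 1 by edgeR.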

How the results depend on the processing

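Of the calls on transcripts, those of WEE2-a, WEE2-b and WEE1-a stood under all 19 alternatives of each comparison, CDKN1B (1K-cell minus 64-cell) under 17, CDC25A-b (1K-cell minus 1-cell) under 18, and CDC25A-a under 11 (4-cell minus 1-cell) and 16 (1K-cell minus 1-cell). Leaving out each embryo in turn, 2 to 3 members were called at 4-cell minus 1-cell, 1 to 2 at 1K-cell minus 64-cell, 4 to 6 at 1K-cell minus 1-cell and 0 to 1 for the interaction. The sums lost calls more easily: 0 to 1 at 4-cell minus 1-cell, 1K-cell minus 64-cell and 1K-cell minus 1-cell, and 0 to 0 for sections at the 1-cell stage. DESeq2 called 2, 1 and 1 members for sections at the 1-, 64- and 1K-cell stages and 3 for the interaction; over all transcripts it called 4707, 2280, 2867 and 2679 for section in stage order and 589 for the interaction, where edgeR called 2003, 651, 1070, 1025 and 242 (383 with the replicate block, there a term for each embryo). An adjusted p under 0.05 gave 1 member for sections at the 1-cell and 64-cell stages and for the interaction. It gave 1 sum (WEE1) for sections at each of the 4-, 64- and 1K-cell stages, and 2 sums at 1K-cell minus 1-cell. For totals of transcripts it added WEE1-b at 1K-cell minus 64-cell, and WEE1-b and PKMYT1-a at 1K-cell minus 1-cell. In these comparisons of totals DESeq2 called 3 and 6 members at an adjusted p under 0.01, where edgeR called 2 and 5. With total counts as the scaling, chosen after the data were seen, section at the 1-cell stage gave 1 member, and CDC25A-a (-0.30) and the CDC25A sum (-0.22) changed sign, and 4111 symbols were called against 1738; the sum at 4-cell minus 1-cell gave 0. TMM factors and no replicate block gave 0 sums for section at the 1-cell stage, where the main model gave CHEK1. Totals from sections A, B, C and E gave 0 sums at 1K-cell minus 64-cell. Embryos of different stages correlated above 0.1 in 4 of 18 pairs with the same replicate number (-0.164 to 0.154). With other numbers it was 3 of 36 pairs (-0.174 to 0.157), so pairing by number is not settled. With the replicate block 0 sums were called at 1K-cell minus 64-cell, where CDKN1B was called without it, and no other count of members changed. Among 2034 values of single members, 1901 kept direction and call, and 69 not called in either fit changed sign. The cause of these changes was not tested. Low counts limit CDKN1B before the 1K-cell stage, WEE2-b at the 1-cell stage, and CDC25A-b and WEE1-b per section.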
